A study of Mus musculus with 6 samples.

Results

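Heat shock proteins and chaperonins help other proteins fold, keep damaged ones from clumping and hand those that cannot be saved to degradation. HSP70 proteins bind exposed stretches of a client in cycles that J proteins start and nucleotide exchange factors such as HSP110 and BAG proteins end, HSP90 finishes many kinases and receptors, and the CCT ring folds actin and tubulin inside a closed chamber. The heat shock factor HSF1 switches on the inducible members when proteins are damaged, while separate programmes serve the endoplasmic reticulum (ER) and the mitochondria. The genes described here are the rows of the count table whose symbols name such families: Hspa, Hspb, Hspd, Hspe, Hsph1, Hsp90, Hsf, Dnaja, Dnajb, Dnajc, Cct2 to Cct8 and Bag1 to Bag6. They numbered 93 of 24421 gene entries, and all 93 matched a gene of GENCODE M21. The symbol rule also takes in Hspb11, which encodes an intraflagellar transport protein, and Hsf2bp, named for binding HSF2, which are no chaperones or factors of that kind by function.

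The libraries came from monocytes sorted from the bone marrow of B6 mice and sequenced as poly(A) RNA. The 3 GM-CSF libraries were from cells given 5 ng of granulocyte-macrophage colony-stimulating factor, a myeloid cytokine, for 3 h (no volume is stated), and the 3 control libraries from cells without it. One label has the controls as freshly isolated and others describe both groups as kept in medium, so time in culture and GM-CSF cannot be told apart if the controls were not cultured. Whether the replicates of a group were separate mice or separate cultures is not stated, and p-values then measure only how far these samples spread, which can be technical variation.

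Gene reads per library ran from 16643228 to 25232956, and levels are given as CPM, the read count of a gene scaled to a common total of gene reads per library. Monocyte markers were high in every library (a sum of 26203 to 67557 CPM over 6 genes), with the sum lower in GM-CSF libraries. The sum of 7 neutrophil markers, all detected, was 21758 to 29622 CPM in control and 12939 to 16308 CPM in GM-CSF libraries. The 4 B cell markers summed to 58.8 to 69.2 and 33.4 to 41.3 CPM, and the 4 T and NK cell markers to 175 to 232 and 168 to 194 CPM. The 3 markers of plasmacytoid dendritic cells summed to 104 to 110 and 55.5 to 59.2 CPM. Megakaryocyte markers reached 21.5 CPM in control replicate 3 and at most 2.62 CPM in every other library. The 4 basophil and mast cell markers summed to at most 9.49 CPM. Erythroid markers were near 0, with Hba-a1 and Hbb-bs at 0 reads. The sums do not show whether other cells or the monocytes themselves made these RNAs, so they do not measure cell content. The part of any other cells in the differences below was not tested, and in bulk RNA fewer cells of a type and less RNA per cell cannot be told apart.

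The promoter sequences of 2 inducible HSP70 genes are shown first because 1 control library stood apart in both genes and because these promoters are nearly identical. Hspa1a and Hspa1b are intronless neighbours on the minus strand of chromosome 17 (GRCm38), at 34969190 to 34972156 and 34956436 to 34959238, with 9951 bases between them. In the 250 bases before their starts, 247 aligned bases were identical (98.8%). Each stretch is written 5′ to 3′ in the direction of transcription from RefSeq on GRCm38.p6, at chr17:34972157-34972406 for Hspa1a and chr17:34959239-34959488 for Hspa1b. Capitals mark a match to GAANNTTC, 2 facing units of the heat shock element to which HSF1 binds, searched on both strands (the letters read the same on each).
Hspa1a: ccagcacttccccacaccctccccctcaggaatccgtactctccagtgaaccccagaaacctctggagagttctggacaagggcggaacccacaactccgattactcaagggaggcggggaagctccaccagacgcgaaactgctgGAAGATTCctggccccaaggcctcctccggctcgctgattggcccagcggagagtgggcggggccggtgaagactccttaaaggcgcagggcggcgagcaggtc
Hspa1b: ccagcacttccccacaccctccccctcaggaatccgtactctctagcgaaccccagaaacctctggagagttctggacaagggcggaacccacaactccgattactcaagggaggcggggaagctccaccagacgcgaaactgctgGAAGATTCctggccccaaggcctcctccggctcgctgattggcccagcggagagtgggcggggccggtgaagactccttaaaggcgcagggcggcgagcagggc
In both, the match begins 104 bases before the start. It was found in 7.86% of 32851 RefSeq promoter windows of 300 bases (250 before to 50 after a start), so on its own it is common. The search here and below took exact letters only, so units with a differing base beside a match were not sought.

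A longer form with 3 alternating units, GAANNTTCNNGAA or its reverse complement, was rarer, at 0.603% of windows, and contains the shorter one. Of the 75 chaperone genes that had a window, 4 held it, namely Dnajb6, Hspd1, Hspe1 and Hsph1. A gene counted if any of its windows matched, so counts of genes and shares of windows are unlike measures. The ER stress response element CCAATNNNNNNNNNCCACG on either strand, was in 0.119% of windows and in 3 of the 75, Hspa5, Hsp90b1 and Dnajc3. These 7 genes rose, where 53.4% of the tested chaperone genes and 32.8% of all tested genes did. The calls of Hspe1 and Hsph1 ended in several settings given below. Whether the motifs go with a rise among genes in general was not tested. Of the 12 tested genes with the shorter heat shock motif, 8 rose, Hspa1b and Hspb6 fell, and Hspa1a and Dnaja4 did not pass. Sites of the 3-unit form and of the ER stress response element are printed with 5 bases on each side. They run in the direction of each gene, with the motif in capitals, and their fixed letters are alike because the search required them. Those of Hspa5, Hspe1, Dnajb6 and Hsph1 overlap annotated exons, and that of Hsph1 begins at base 16 after the start.
Hspa5, chr2:34772020-34772048, plus strand: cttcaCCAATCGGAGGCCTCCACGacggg
Dnajc3, chr14:118937822-118937850, plus strand: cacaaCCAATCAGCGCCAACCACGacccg
Hsp90b1, chr10:86705633-86705661, minus strand: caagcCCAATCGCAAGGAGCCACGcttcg
Hsp90b1, chr10:86705528-86705556, minus strand: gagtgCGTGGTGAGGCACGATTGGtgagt
Hspe1, chr1:55088059-55088081, plus strand: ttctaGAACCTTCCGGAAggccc
Dnajb6, chr5:29735847-29735869, plus strand: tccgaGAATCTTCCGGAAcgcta
Hsph1, chr5:149636283-149636305, minus strand: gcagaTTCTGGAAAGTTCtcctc
The Hspe1 site also lies in the window of Hspd1, which starts on the opposite strand, and it overlaps a further match. A match is a description of letters, and nothing here measured binding.

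More chaperone genes were higher than lower in GM-CSF libraries. Of the 93 genes, 73 passed the filter on low counts and were tested, and 39 of them rose and 9 fell at an adjusted p under 0.05 (edgeR quasi-likelihood test, Benjamini-Hochberg over all genes). Of all 11731 genes tested, 64.0% passed in either direction, 32.8% higher and 31.2% lower. The chaperone genes therefore passed about as often as genes in general (65.8%), with 53.4% higher and 12.3% lower. Their median log2 fold change was 0.39, beside 0.01 over all tested genes. Upper quartile scaling moved the median of all genes by more than 0.1, to -0.11, and that of the chaperone genes to 0.27, with 34 higher and 12 lower. The groups did not overlap for 40 tested members that were higher and 11 that were lower (54.8% and 15.1%), beside 34.9% and 34.7% of all tested genes (69.5% in either direction).

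The summed level of the 93 genes was 7366 to 7862 CPM in control and 10701 to 12136 CPM in GM-CSF libraries. Changes were mostly small. Of the 73 tested chaperone genes, 10 passed with a rise of 2-fold or more and 2 with a fall of 2-fold or more. Of all tested genes, 11.9% and 12.6% did so. The other 20 genes had 34 reads or fewer over the 6 libraries, and 7 of them had 0. They include 6 of the 8 small heat shock genes.

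**Figure D1:**
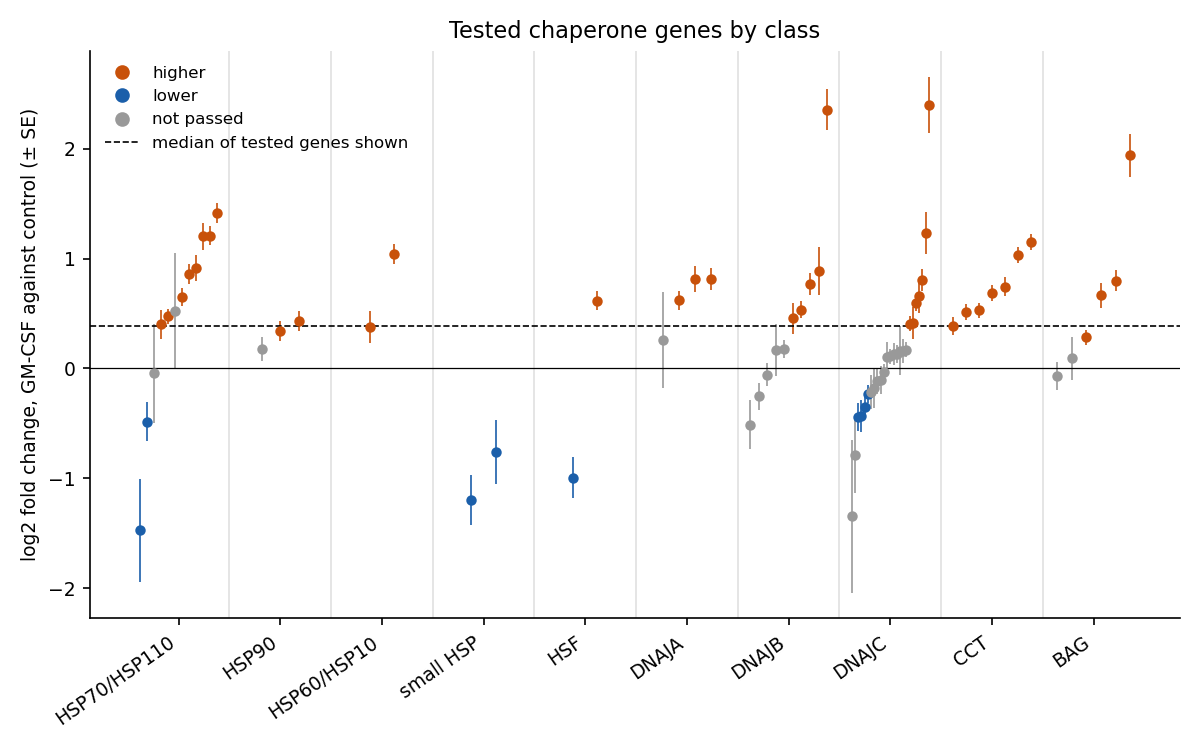
Log2 fold change of GM-CSF against control with SE for each of the 73 tested chaperone genes, grouped by family on the x axis and ordered by value within a family; colours show genes that passed the test higher, lower or not at all. The CCT points all lie above 0, the dashed median line is at 0.39, and the lowest point that passed is Hspa1b at -1.47.

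In the test of all 6 libraries the inducible HSP70 genes did not follow this rise, and 1 control library stood apart in both. Hspa1a was at 52.2, 11.7 and 15.7 CPM in control replicates 1, 2 and 3 and at 30.9, 19.7 and 26.6 CPM in GM-CSF replicates 1, 2 and 3. Hspa1b was at 136, 33.0 and 40.6 CPM in the controls and at 33.7, 17.2 and 24.4 CPM with GM-CSF. Hspa1a was 3.70-fold and Hspa1b 3.65-fold higher in control replicate 1 than the mean of the other controls (0.5 CPM added), and for both the groups overlapped.

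In the test of all 6 libraries Hspa1b fell by 1.47 ± 0.47 on the log2 scale (SE; edgeR adjusted p = 0.0171) and Hspa1a had a log2 fold change of -0.05 ± 0.45 (adjusted p = 0.934). Without control replicate 1, Hspa1a was higher by 0.93 (adjusted p = 0.00494) and Hspa1b was at -0.53 and did not pass (adjusted p = 0.0869). The Hspa1b call also ended without GM-CSF replicate 2 (-1.25), with DESeq2 (-1.48, adjusted p = 0.0553), with limma-voom (-1.22, 0.0530) and with a robust prior (adjusted p = 0.149). The sign of Hspa1a turned without GM-CSF replicate 2 (0.13) and with limma-voom (0.26).

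Because 39.7% of the 150-base windows of Hspa1a transcripts and 40.5% of those of Hspa1b also occur in another gene (each other and Hspa1l), reads may be split between them or lost. Hspa1a exons also overlap the gene Gm20481 over 19.0% of their length, and strand use in counting is not given. Added into 1 entry, the pair was at 188, 44.7 and 56.3 CPM in controls and at 64.6, 37.0 and 51.0 CPM with GM-CSF. The sum had a log2 fold change of -0.92 ± 0.45 and did not pass (edgeR adjusted p = 0.0954). Without control replicate 1 it was 0.03 (adjusted p = 0.913), and without control replicate 2 it was -1.27 and passed (adjusted p = 0.0263).

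The balance within the pair, a measure chosen after the values were seen, did not overlap between the groups. Hspa1b made up 72.2%, 73.8% and 72.1% of the pair's reads in control replicates 1, 2 and 3, and 52.2%, 46.7% and 47.9% in GM-CSF replicates 1, 2 and 3. Control replicate 1, with 4509 reads of the pair where the other controls had 1128 and 1171, had a share between theirs. The means were 72.7% ± 0.930 and 48.9% ± 2.92 (SD, n = 3), a difference of -23.8 percentage points (two-sided exact permutation p = 0.1, the smallest that 3 against 3 libraries allow). Groups without overlap always give this p, so it adds nothing to the lack of overlap. The widest 95% Wilson interval of a single library, for GM-CSF replicate 2, was 42.8% to 50.6%, which covers counting error only. Leaving out any 1 library gave differences of -25.4 to -22.7 points.

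**Figure D2:**
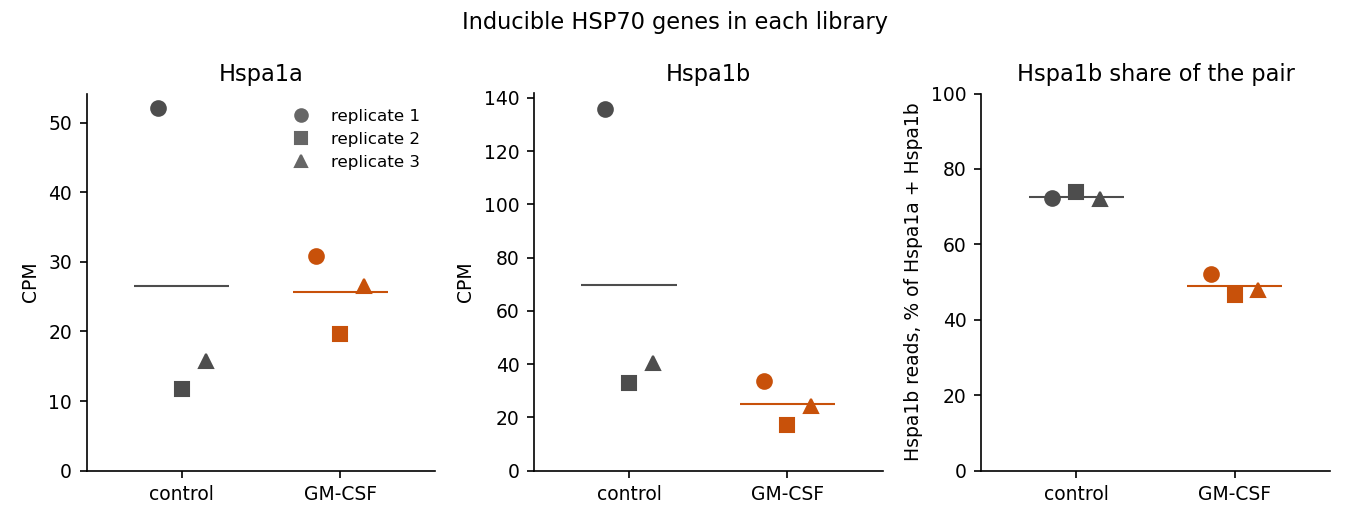
CPM of Hspa1a (left) and Hspa1b (middle) and the percentage of the pair's reads that came from Hspa1b (right) in each library, with marker shapes for replicates and lines for group means. Control replicate 1 stands at 52.2 and 136 CPM, above all other libraries, while its share of 72.2% lies with the other controls.

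Control replicate 1 stood above the other controls in these 2 genes more than in any other tested gene. Ranked by the log2 ratio of control replicate 1 to the mean of control replicates 2 and 3 (0.5 CPM added), Hspa1a came first and Hspa1b second of 11731 tested genes, at 1.89 and 1.87. Ranked by the size of the ratio in either direction they came at 3 and 4, since 2 genes were lower in control replicate 1 by more. Their neighbour Hspa1l, with 16, 8 and 5 control reads, was at 0.58. It overlaps another annotated gene over 71.9% of its exons and did not pass the test between groups (0.53 ± 0.52, adjusted p = 0.397). In all, 9 of 73 tested members (12.3%) had a ratio of at least 0.25, beside 7.15% of all tested genes. In the other direction, 7 members (9.59%) were at -0.25 or below, beside 12.5% of all tested genes, with Dnajc28 (-0.59) and Dnajc27 (-0.55) the lowest, and the median of the members was -0.003. Besides Hspa1a, Hspa1b and Hspa1l, those at 0.25 or above were the HSP10 gene Hspe1 (0.45), the HSP110 gene Hsph1 (0.43), Hspb11 (0.35), the cytosolic HSP90 gene Hsp90aa1 (0.33), the constitutive HSP70 gene Hspa8 (0.33) and the J protein gene Dnaja1 (0.31). These were chosen by that ratio, so they carry no test. The neutrophil marker sum of control replicate 1, 23376 CPM, lay between those of the other controls, and its monocyte marker sum, 67557 CPM, was the highest of the controls.

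**Figure D3:**
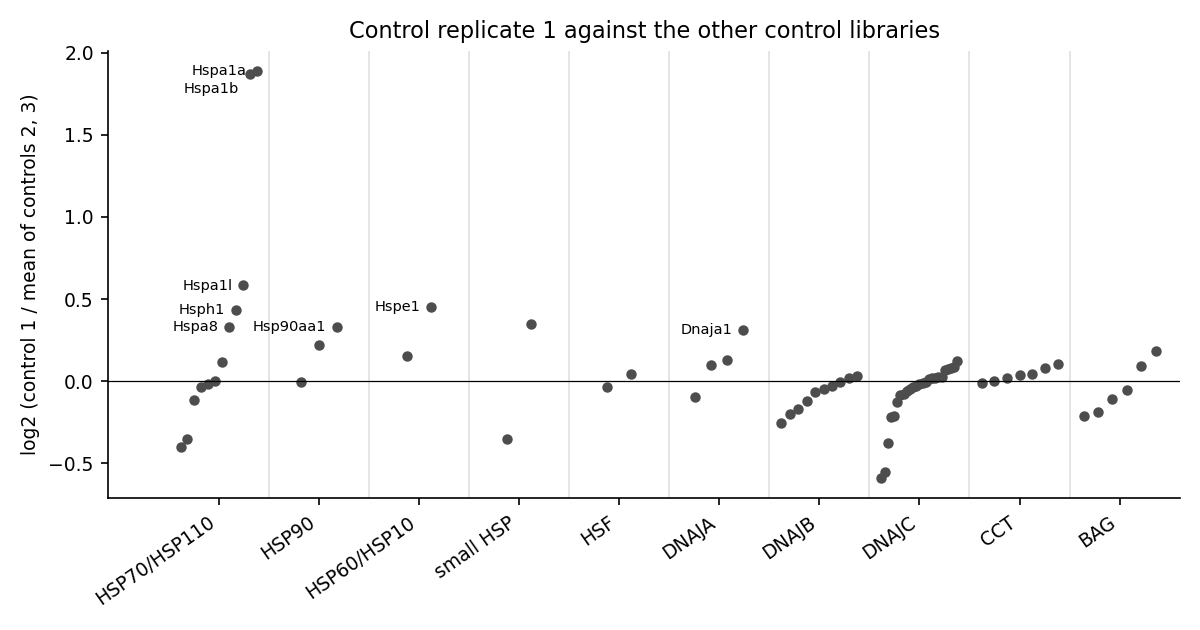
Log2 ratio of control replicate 1 to the mean of control replicates 2 and 3 for the 73 tested chaperone genes by family. Names are given for 8 of the 9 genes at 0.25 or above, and Hspb11 (0.35) is left unnamed. Hspa1a and Hspa1b stand at 1.89 and 1.87 while the CCT subunits lie close to 0.

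The HSP70 and HSP110 family had 12 tested genes, the inducible pair included, with 8 higher, 2 lower and 2 that did not pass (median 0.59). That is 66.7% higher and 16.7% lower, beside 32.8% and 31.2% of all tested genes. Hspa8, which encodes HSC70, the constitutive HSP70 of the cytosol, was at 579, 451 and 469 CPM in controls and at 1058, 897 and 856 CPM with GM-CSF, so that every GM-CSF library was above every control. Its log2 fold change was 0.91 ± 0.12 (edgeR adjusted p = 4.53e-05). Of its 150-base windows, 22.8% occur in other annotated genes, so part of its reads may be lost.

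The nucleotide exchange factors of the HSP110 kind rose as well. Hspa4 went from 168 ± 3.60 to 303 ± 36.3 CPM (SD, n = 3; 0.86 ± 0.09), and Hspa4l rose by 0.65. Hsph1 was at 42.6, 30.2 and 32.7 CPM in controls and 48.7, 44.5 and 45.8 CPM with GM-CSF (0.40 ± 0.13, adjusted p = 0.0200). That call ended without GM-CSF replicate 1 (0.36), without control replicate 2 (0.30) or 3 (0.34), and with upper quartile scaling (0.29). Hspa14, whose product works on the ribosome with the J protein of Dnajc2, rose by 0.48 and Dnajc2 by 0.81. Hspa2, an HSP70 gene best known from the testis, fell from 8.58 ± 1.27 to 6.12 ± 0.908 CPM (-0.48 ± 0.18, adjusted p = 0.0367). Its call ended without GM-CSF replicate 2 (-0.54) or 3 (-0.35) and without control replicate 2 (-0.45) or 3 (-0.41).

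HSP90 genes of the cytosol differed in outcome. Hsp90ab1, the constitutive form, was at 893, 783 and 749 CPM in controls and at 1162, 1062 and 1028 CPM with GM-CSF (0.43 ± 0.09, adjusted p = 0.00186). Hsp90aa1, the stress-inducible form, was at 205, 154 and 172 CPM in controls and at 212, 205 and 180.2 CPM with GM-CSF, and the groups overlapped. It did not pass (0.18 ± 0.11, adjusted p = 0.185). Without control replicate 1 it was at 0.30 and passed (adjusted p = 0.0237). Of its windows, 28.5% occur in other genes. The difference between the 2 HSP90 genes was not tested.

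Per kilobase of annotated exon, Hsp90ab1 had the highest level of all members in both groups, at 269.6 CPM per kb in control and 361 with GM-CSF. Hspa5 was next at 156 and 358 CPM per kb. On the same scale Hspa1b stood at 24.9 and 8.96 and Hspa1a at 8.95 and 8.67 CPM per kb.

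The main HSP70 and HSP90 genes of the ER rose. Hspa5 encodes BiP, the HSP70 of the ER lumen, and went from 624, 643 and 711 CPM in controls to 1619.7, 1526 and 1399.7 CPM with GM-CSF (1.21 ± 0.08, adjusted p = 3.63e-07). Hsp90b1, the HSP90 of the ER (GRP94), was at 615, 627 and 605 CPM and at 828, 826 and 673 CPM (0.34 ± 0.09, adjusted p = 0.00588). Its value was 0.22 with upper quartile scaling. Both levels were above every control in every GM-CSF library, though the rise of Hsp90b1 was the smaller one. Hspa13, an HSP70-like gene of the ER, rose from 23.4 ± 3.93 to 53.5 ± 3.98 CPM (1.20 ± 0.12).

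Of the J proteins that serve BiP, Dnajb11 rose by 0.53 ± 0.08, Dnajc3 by 0.41 ± 0.06, Dnajc25 by 0.41 ± 0.14 and Dnajb9 by 0.89 ± 0.22. Dnajb9 was at 28.2 and 30.0 CPM in GM-CSF replicates 1 and 2 and at 15.2 CPM in replicate 3, still above the highest control at 14.2 CPM. Dnajc1 (0.16, adjusted p = 0.212) and Dnajc10 (0.13, adjusted p = 0.271), a J protein with disulfide reductase activity, did not pass. Dnajc10 passed without GM-CSF replicate 3 (0.22). Other J protein genes of the ER membrane or lumen did not rise: Dnajb12 (-0.25), Dnajb14 (-0.06), Dnajc16 (-0.18) and Dnajc18 (-0.21) did not pass, and Dnajc14 fell by 0.35. The ER genes among the members were grouped after their values were seen. The Dnajc25 call ended without GM-CSF replicate 2 (0.32) and without control replicate 2 (0.35) or 3 (0.43), and with upper quartile scaling (0.29). The 3 members with the ER stress response element were Hspa5, Hsp90b1 and Dnajc3, and their promoter sites are those shown above. Longer stretches around such sites that lie outside annotated exons follow, from chr10:86705510-86705694 on the minus strand and chr14:118937682-118937931 on the plus strand, with the motifs in capitals.
Hsp90b1: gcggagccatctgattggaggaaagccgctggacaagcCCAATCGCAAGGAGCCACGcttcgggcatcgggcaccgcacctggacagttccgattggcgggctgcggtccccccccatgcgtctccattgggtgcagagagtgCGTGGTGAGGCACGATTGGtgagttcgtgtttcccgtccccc
Dnajc3: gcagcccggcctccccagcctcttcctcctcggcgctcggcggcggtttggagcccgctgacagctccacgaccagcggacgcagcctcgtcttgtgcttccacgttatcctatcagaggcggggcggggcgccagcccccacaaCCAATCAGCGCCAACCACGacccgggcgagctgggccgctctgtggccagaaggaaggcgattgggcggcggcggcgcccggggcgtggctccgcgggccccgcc
The Hsp90b1 stretch carries the motif on both strands and Dnajc3 carries it once.

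Mitochondrial HSP70 and HSP60 genes rose, with the largest rise of the HSP70 family in Hspa9. Hspa9, the HSP70 that pulls proteins into the mitochondrial matrix, was at 118, 118 and 122 CPM in controls and at 347, 326 and 277 CPM with GM-CSF (1.42 ± 0.09, edgeR adjusted p = 1.73e-07). Hspd1, which encodes HSP60, went from 73.2, 66.1 and 65.7 CPM to 154, 137 and 129 CPM (1.04 ± 0.09, adjusted p = 2.88e-06). Each GM-CSF library was above each control for both genes.

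Hspe1 encodes HSP10, the lid of the HSP60 chamber, and starts head to head with Hspd1 on chromosome 1, where the annotated genes overlap. It was at 28.3, 19.4 and 21.7 CPM in controls and at 31.9, 29.9 and 28.0 CPM with GM-CSF, and the groups overlapped. Its log2 fold change was 0.37 ± 0.15 (adjusted p = 0.0439). The call ended without GM-CSF replicate 1 (0.32) or 2 (0.39), without control replicate 2 (0.26) or 3 (0.32), and with upper quartile scaling (0.26). Whether Hspe1 and Hspd1 differ in their response was not tested.

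J proteins linked to mitochondria, also grouped after their values were seen, were mixed. Dnaja3 rose by 0.81 ± 0.10 and Dnajc11 by 0.59 ± 0.07, Dnajc30 (0.10) and Dnajc28 (-0.79) did not pass, and Dnajc4 fell by 0.44. The import motor J proteins Dnajc15 (-0.23 ± 0.08, adjusted p = 0.0244) and Dnajc19 (-0.43 ± 0.14, adjusted p = 0.0200) fell. The Dnajc15 call ended without GM-CSF replicate 2 (-0.21) or 3 (-0.19) and without control replicate 1 (-0.20). That of Dnajc19 ended without GM-CSF replicate 1 (-0.32) or 2 (-0.39) and without control replicate 1 (-0.38) or 3 (-0.43).

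All tested subunits of the CCT ring were higher with GM-CSF. The 7 tested genes Cct2, Cct3, Cct4, Cct5, Cct6a, Cct7 and Cct8 passed, and in each the lowest GM-CSF library was above the highest control. Of all tested genes, 32.8% passed higher and 34.9% were higher without overlap between the groups. Cct3 rose most, from 182, 176 and 188 CPM to 422, 387 and 391 CPM (1.15 ± 0.07, edgeR adjusted p = 1.66e-07). Cct6a went from 196, 192 and 194 CPM to 415, 393 and 376 CPM (1.03 ± 0.07), and 15.3% of its exon length overlaps other genes, Psph among them. The others followed with Cct8 at 0.74, Cct2 at 0.69, Cct7 at 0.53, Cct5 at 0.51 and Cct4 at 0.39.

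Control replicate 1 lay close to the other controls for these subunits, with log2 ratios of -0.01 (Cct2) to 0.10 (Cct8). Tcp1, the CCT1 subunit, which the symbol rule leaves out and which was named after its value was seen, rose by 0.79 ± 0.07 from 146 ± 8.90 to 252 ± 5.00 CPM. The ring variants Cct6b (28 control and 6 GM-CSF reads) and Cct8l1 (0 reads) had too few reads to test.

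**Figure D4:**
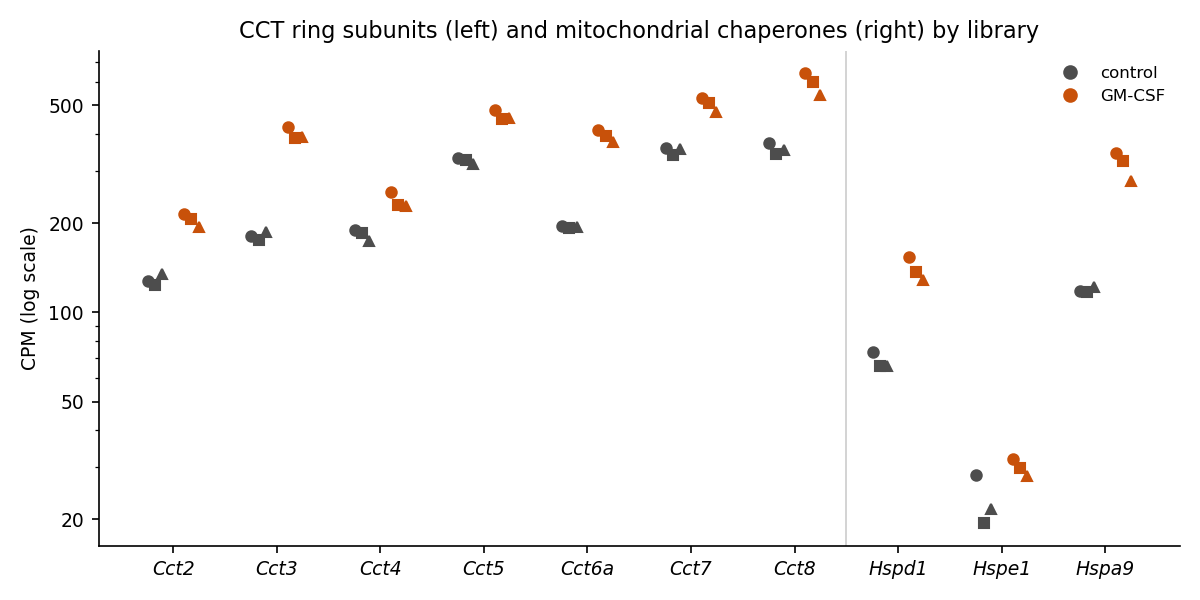
CPM on a log axis of 7 CCT subunits (left of the line) and of the mitochondrial chaperone genes Hspd1, Hspe1 and Hspa9 (right), with control libraries in grey and GM-CSF libraries in orange and marker shapes for replicates 1 (circle), 2 (square) and 3 (triangle). The groups are apart for every gene shown except Hspe1, where control replicate 1 at 28.3 CPM lies within the GM-CSF range.

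J proteins of the A kind, the closest relatives of the bacterial DnaJ, mostly rose. Of 4 tested, 3 rose (75%, beside 32.8% of all tested genes). These were Dnaja1 (0.81 ± 0.11), Dnaja2 (0.62 ± 0.09) and Dnaja3, given above, while Dnaja4 did not pass (0.26, edgeR adjusted p = 0.624). Dnaja2 was the most abundant in counts, at 166, 155 and 149 CPM in controls and 262, 238 and 219 CPM with GM-CSF.

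Of 10 tested J proteins of the B kind, 5 rose (50%, beside 32.8% of all tested genes) and 5 did not pass. Dnajb2, which carries clients towards the proteasome, was at 1.92, 1.82 and 2.02 CPM in controls and at 10.8, 9.43 and 9.13 CPM with GM-CSF. Its log2 fold change of 2.35 ± 0.19 (adjusted p = 1.05e-06) was second only to that of Dnajc21 among all members tested. Dnajb6, an inhibitor of protein aggregation, rose by 0.77 and Dnajb5 by 0.46; the call of Dnajb5 ended with upper quartile scaling (0.34, adjusted p = 0.0520). Dnajb1, the main J partner of inducible HSP70 and itself an HSF1 target, was at 87.2, 83.7 and 96.8 CPM in controls and at 96.5, 96.7 and 108 CPM with GM-CSF and did not pass (0.18 ± 0.08, adjusted p = 0.0816). In control replicate 1 it lay between the other controls, unlike Hspa1a and Hspa1b.

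The J proteins of the C kind, a mixed family that shares little beyond the J domain, passed least often of the families. Of 25 tested genes 44.0% passed, beside 64.0% of all tested genes. There were 7 that rose (28%, beside 32.8%) and 4 that fell (16%, beside 31.2%), and the other 14 (-1.34 to 0.17) did not pass. Dnajc21, a factor in the maturation of the large ribosomal subunit, rose most, from 5.92, 5.43 and 5.77 CPM to 19.4, 26.7 and 43.6 CPM (2.40 ± 0.26, edgeR adjusted p = 1.12e-05). The GM-CSF libraries spread widely, with replicate 3 the highest, and without it the value was 2.03. Dnajc27, which joins a Rab-like GTPase to a J domain, went from 5.07 ± 1.15 to 11.9 ± 1.43 CPM (1.23 ± 0.19). Besides Dnajc15 and Dnajc19, Dnajc4 (-0.44 ± 0.13, adjusted p = 0.0108) and Dnajc14 (-0.35 ± 0.09, adjusted p = 0.00438) fell.

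BAG proteins release clients from HSP70 and link it to other machinery. Of 6 tested, 4 rose (66.7%, beside 32.8% of all tested genes) and 2 did not pass. Bag2, an inhibitor of the ubiquitin ligase CHIP, was at 2.17, 2.34 and 2.41 CPM in controls and at 9.65, 7.51 and 9.18 CPM with GM-CSF (1.94 ± 0.19, adjusted p = 6.37e-06). Bag3, an HSF1 target that directs aggregates to autophagy, went from 14.2, 16.2 and 16.2 CPM to 24.8, 24.2 and 24.5 CPM (0.66 ± 0.11), and control replicate 1 was its lowest library. Bag5 rose by 0.80 and Bag1 by 0.28; the Bag1 call ended with upper quartile scaling (0.17, adjusted p = 0.0531).

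Bag4 did not pass (-0.07, adjusted p = 0.664). Bag6, which escorts membrane proteins that failed insertion, was at 60.8, 54.9 and 59.1 CPM in controls and at 71.3, 75.6 and 39.1 CPM with GM-CSF. Its GM-CSF replicate 3 was below all other libraries, and the gene did not pass (0.09 ± 0.19, adjusted p = 0.690). Without that library it was at 0.35 and passed (adjusted p = 0.00289).

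The heat shock factors went in opposite directions. Hsf1, the main activator of the heat shock response, was at 49.0, 48.0 and 52.6 CPM in controls and at 76.3, 70.4 and 81.0 CPM with GM-CSF (0.62 ± 0.09, adjusted p = 9.13e-05). Hsf2, a related factor, was at 8.38, 9.19 and 7.03 CPM and at 3.52, 4.21 and 4.56 CPM (-0.99 ± 0.19, adjusted p = 7.96e-04). For neither did the groups overlap. HSF1 is controlled mainly as a protein, which mRNA levels do not show. Hsf2bp, Hsf3, Hsf4 and Hsf5 had too few reads to test.

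Small heat shock genes were scarce. Of 8 genes, 2 were tested and both fell, where 31.2% of all tested genes did. Hspb6 went from 6.21, 7.29 and 8.81 CPM to 2.32, 3.61 and 3.68 CPM (-1.20 ± 0.22, edgeR adjusted p = 7.26e-04). Hspb11, no chaperone by function, went from 4.88, 3.84 and 3.61 CPM to 1.73, 2.04 and 3.40 CPM (-0.76 ± 0.29, edgeR adjusted p = 0.0391). The Hspb11 call ended when control replicate 1, 2 or 3 was left out (respectively -0.61, -0.81 and -0.86) and when GM-CSF replicate 1 or 2 was (-0.58 and -0.65). Hspb1, which encodes the classic HSP27 kind of small heat shock protein, had 1 read in all, and 39.1% of its windows occur in other genes.

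Hspb7 and Hspa12a, both outside the test, had 0 reads in 1 group. Hspb7 had 0 reads in each control and 15, 8 and 7 reads with GM-CSF, at least 12.8-fold higher against 3 reads over the control group, the limit that a count of 0 allows. Hspa12a had 3, 6 and 10 control reads and 0 with GM-CSF, at least 4.97-fold lower on the same limit over the GM-CSF group. These limits cover counting error only.

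Among 53 partner genes of these chaperones from a separate list, 52 were tested, 28 rose and 4 fell (53.8% and 7.69%, beside 32.8% and 31.2% of all tested genes; median 0.33). The list of ER folding genes, which also holds the stress factors Xbp1, Atf4, Atf6 and Ddit3, moved most evenly, with 10 of 12 higher and none lower. Xbp1, a transcription factor of the unfolded protein response, went from 415, 394 and 402 CPM to 2675, 2614 and 2741 CPM (2.74 ± 0.08, edgeR adjusted p = 5.60e-10). Atf4, a factor of the integrated stress response, rose by 1.36 ± 0.11 and the ER stress gene Manf by 1.18 ± 0.08. Ddit3, which encodes the stress factor CHOP, was at 8.38, 10.2 and 9.38 CPM in controls and at 9.48, 6.91 and 6.24 CPM with GM-CSF and did not pass (-0.30 ± 0.19, edgeR adjusted p = 0.181). Of 4 partner genes with the ER stress response element, Calr (0.34), Creld2 (0.89) and Pdia6 (0.50) rose and Canx did not pass (0.13).

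Of 16 HSP90 cochaperones 7 rose (43.8%) and 1 fell (6.25%), and of 10 chaperonin and prefoldin genes 4 rose (40%) and 1 fell (10%). Of 5 mitochondrial chaperone and protease genes 2 rose (40%). Of all tested genes 32.8% rose and 31.2% fell, so the shares that rose in these small groups were not far above it. Of 9 genes for HSP70 exchange factors and related ER or mitochondrial helpers, 5 rose (55.6%) and 2 fell (22.2%). In that group Hyou1, the HSP110 of the ER, went from 64.3 ± 6.93 to 124 ± 2.38 CPM (0.95 ± 0.09), and Grpel1 and Grpel2, exchange factors for Hspa9, rose by 0.62 and 0.72. Among those that fell were Hscb (-0.82), which helps build iron-sulfur clusters, the prefoldin gene Pfdn5 (-0.39) and the ER gene Sdf2l1 (-0.31).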

How the data were processed

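The authors deposited raw read counts per gene symbol. HTSeq 0.6.1p1, STAR 2.5.2a, Trim Galore 0.4.4, the build mm10 and edgeR are listed in the submitters' processing notes without roles; strand use and annotation: not given in the sources used here. Rows naming no gene (28.8% to 30.6% of reads per library) were left out. Groups came from labels and columns from titles. Counts were fitted over the whole table in R 4.3.3 with edgeR 4.0.16 (TMM, filterByExpr with minimum count 10 and total 15, glmQLFit, glmQLFTest, two-sided), with Benjamini-Hochberg adjustment and a threshold of 0.05; the procedure was tested on simulated counts. Positive log2 fold changes mean higher with GM-CSF, and the SE is the absolute value divided by the square root of F. Alternatives used limma 3.58.1, DESeq2 1.42.0, other scalings and filters, a robust prior, a replicate block and each library left out. Positions, exon lengths and shared 150-base windows came from GENCODE M21, promoters from RefSeq on GRCm38.p6, the assembly of mm10.

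The members and lists were chosen with earlier results of these data known. Values were named for Hspa1a and Hspa1b, for genes past the threshold and at least 2-fold changed, for the most abundant gene of each family, for all HSP90, HSF and CCT genes, for families of at most 8 tested genes, and for the 3 largest rises and falls of partner genes, of which 1 is not reported here. Other HSP70, DNAJB, DNAJC and partner genes were named after their values were seen.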

Additional observations from a re-analysis of the deposited data

How the results depend on the processing

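The counts of chaperone genes that passed, 48 in all, ranged from 46 to 52 under other scalings, filters and tests and from 43 to 50 with 1 library left out (36 to 42 higher and 6 to 8 lower). Partner genes ranged from 30 to 36 with 1 library left out. Of 47 named members that passed, 37 kept their direction and call in each setting run. The summed Hspa1a and Hspa1b entry ranged from -1.27 to 0.0299 with 1 library left out, and it passed with no filter on low counts (-0.94). The share of Hspa1b in the pair ranged from -25.4 to -22.7 points. Whether the replicate numbers pair the samples is not settled. Same-numbered libraries had deviations correlated at 0.0731, 0.00962 and 0.00384. The first was the highest of all pairs, but GM-CSF replicate 3 correlated better with control replicate 2 (0.0304). Hspa1a and Hspa1b were highest in replicate 1 and lowest in replicate 2 in both groups. Correlations over so few libraries cannot decide the question. With the replicate block, 49 members passed, the summed entry passed at -0.66 (adjusted p = 0.0308), and Hspa1a turned to 0.23. Dnajb1 passed (0.18, adjusted p = 0.0475), and Hspa2 (-0.48, adjusted p = 0.0563) and Hspb11 (-0.79, adjusted p = 0.0516) did not. Hspa1a was at 0.26 with limma-voom and ranged from -0.41 to 0.93 with 1 library left out, above 0 without GM-CSF replicate 2 (0.13) or control replicate 1 (0.93). Other values near 0 that turned were Bag6 (-0.024) and Dnajc7 (-0.0068) with upper quartile scaling. With 1 library left out, Bag4 ranged from -0.18 to 0.0058, Bag6 from -0.058 to 0.35 and Dnaja4 from -0.0034 to 0.65. The cause was not tested. Counts of 3 reads equal 0.119 to 0.180 CPM, which limits the 20 untested genes.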
